A study of Mus musculus with 4 samples.

Results

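Mitosis and G2/M genes encode the proteins that carry a cell from the end of DNA replication through chromosome segregation to cell division. A set of 41 of them was followed in RNA from sorted natural killer (NK) cells, innate lymphocytes able to kill tumour and infected cells. The set was listed by name, with earlier results of these data known when it was chosen. All 41 were found under their NCBI Gene numbers among 17723 genes with a value in any library, and all 41 reached the required 1 FPKM (sequenced fragments scaled to transcript length and library size) in at least 1 library. The member nearest to that limit was Bub1, whose highest level was 3.18 FPKM.

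The NK cells came from spleens of C57BL/6J mice aged 6 to 8 weeks and were sorted by DNAM-1, an activating receptor encoded by Cd226. The 4 groups were DNAM-1+ and DNAM-1- cells of normal spleen (day 0), and DNAM-1+ and DNAM-1- cells of spleen at day 17 after transplantation of GFP+ MLL-AF9 acute myeloid leukaemia (AML) cells from leukaemic mice into mice that were not irradiated, a model in which survival was 35 to 40 days. With a single library (1) in each group there are no replicates, and a difference between any 2 libraries is given without a p-value. The labels give no number of mice per library, no other sorting gate and no purity.

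A cell entering mitosis switches on cyclin B with Cdk1, condenses its chromosomes, attaches them to the spindle through kinetochores, waits at the spindle checkpoint and then destroys its cyclins through the anaphase-promoting complex. Most of these genes are transcribed in G2 and mitosis and silent in resting cells, so their RNA is widely used as a sign of dividing cells, and in the spleen a fraction of NK cells divides at steady state. Their promoters are known to be held off in resting cells by the DREAM complex, made of MuvB, a pocket protein and E2f4, and switched on by B-MYB and FOXM1 bound through MuvB at a DNA element called the cell cycle homology region, often beside CCAAT boxes bound by NF-Y.

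The libraries were of similar depth, estimated at 9000000 to 9500000 fragments, with 15460 to 16161 genes listed in each. Cd226 was at 38.6 and 36.1 FPKM in the DNAM-1+ libraries of normal and AML spleen and at 0.45 and 0.58 in the DNAM-1- libraries, and the NK receptor gene Ncr1 was between 383 and 597 in all 4. The 41 members had medians of 298 (DNAM-1+) and 113 (DNAM-1-) estimated fragments in the normal spleen libraries, and 207 and 105 in those of AML spleen. The lowest was Pbk with 63, 12, 45 and 16. Exact 95% intervals (Clopper-Pearson) on ratios come from these estimated fragments and cover counting error only.

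Every one of the 41 genes had more RNA in DNAM-1+ than in DNAM-1- NK cells, in normal spleen and again in AML spleen, 2 comparisons that share no library. The summed level of the 41 genes was 661 FPKM for DNAM-1+ and 302 for DNAM-1- in normal spleen, and 462 and 259 for them in AML spleen. DNAM-1+ cells thus held 2.19 times as much in normal and 1.78 times as much in AML spleen. The median log2 ratio, taken after adding 1 FPKM to both values, was 1.11 in normal spleen (0.32 to 1.79) and 0.78 in AML spleen (0.20 to 1.35), beside medians of -0.00 and 0.00 over the 12054 genes that reached 1 FPKM in any library. Of those 12054 genes, 48.8% and 50.7% were higher in DNAM-1+ cells in the 2 spleens. In bulk RNA, fewer dividing cells and less of this RNA in each dividing cell cannot be told apart.

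Both DNAM-1+ libraries were above both DNAM-1- libraries for 40 of the 41 genes, against 26.3% of all genes. The exception was Spc24, which was lower in DNAM-1+ AML than in DNAM-1- normal cells. The DNAM-1+ normal library was the highest of the 4 for 40 members (26.9% of all genes), the exception being Cenpa. The full order from high to low of DNAM-1+ in normal, DNAM-1+ in AML, DNAM-1- in normal and DNAM-1- in AML spleen was shared by 35 members. The share of all genes with that order was not computed. Where the higher library reached 5 FPKM, 23 of 35 members were raised 2-fold or more in DNAM-1+ cells of normal spleen, where 1.28% of genes were, and 6 of 27 in AML spleen, where 0.894% were. None was 2-fold lower in either, against 3.97% and 3.19% of genes. Members that passed the 5 FPKM floor only through their DNAM-1+ library favour such a result, so the 23 and the 6 stand beside all 41. The counting interval of the ratio lay above 1 for 41 members in normal spleen and for 39 in AML spleen, all but Aurka and Hmmr. Such intervals were computed for members only, so no share of all genes stands beside these counts.

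**Figure D1:**
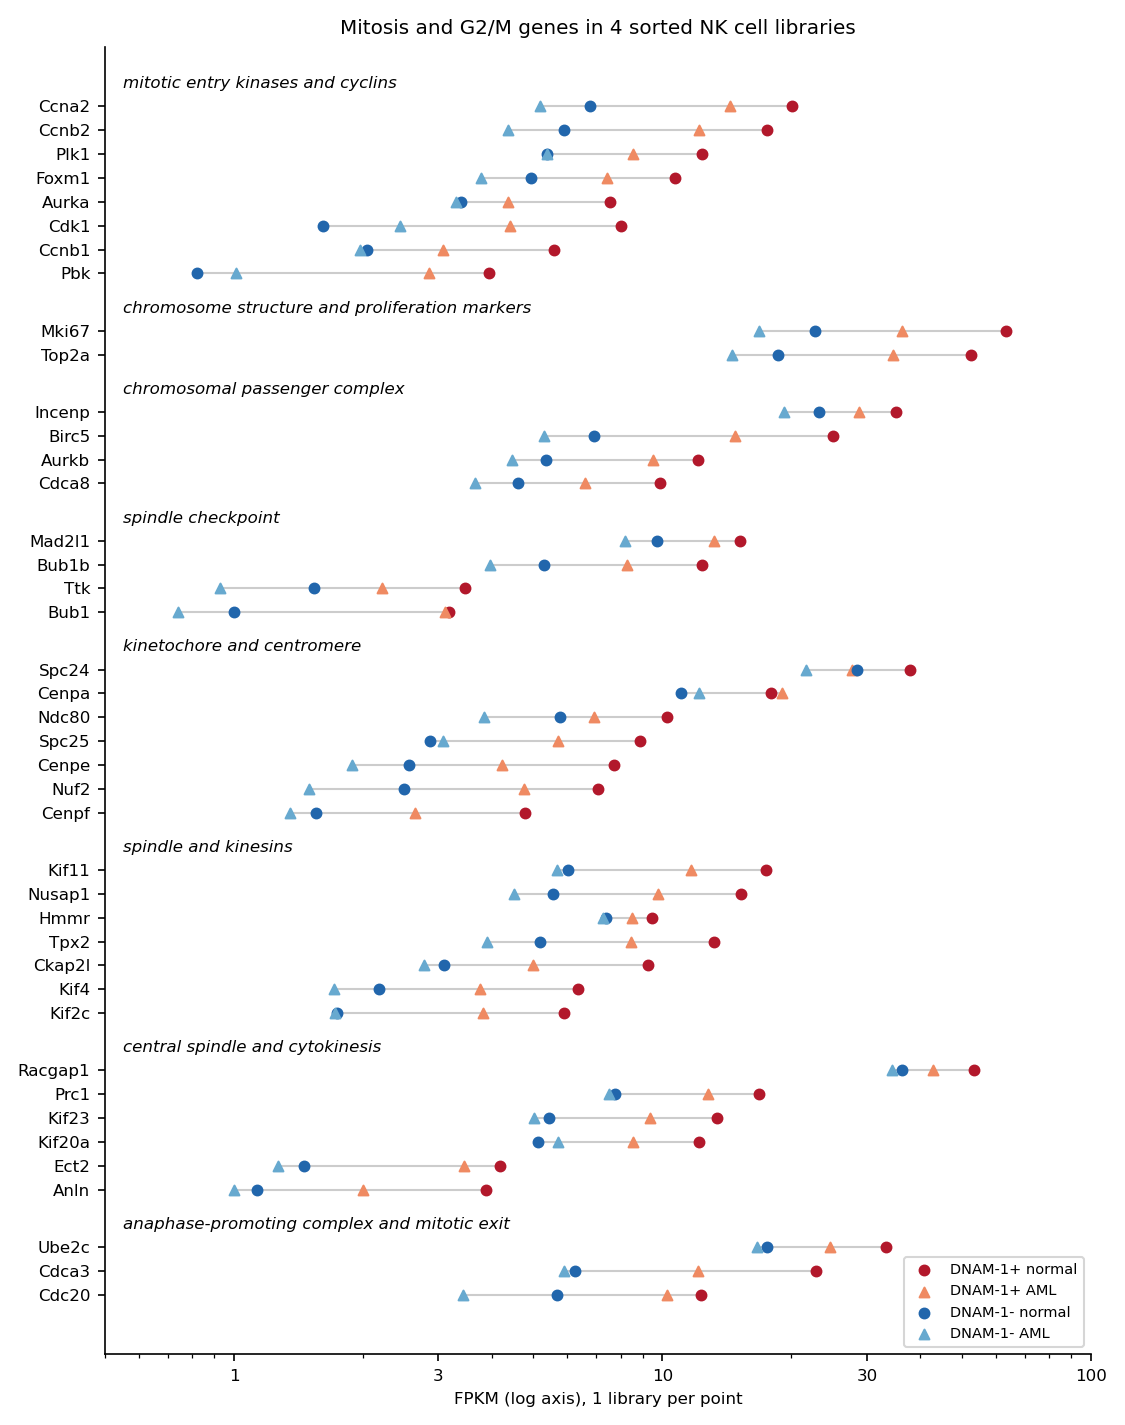
Level of each of the 41 genes in FPKM on a log axis, grouped by role, with 1 point per library (circles, normal spleen; triangles, AML spleen; red shades, DNAM-1+; blue shades, DNAM-1-) and a grey line from the lowest to the highest. The dark red circle of the DNAM-1+ normal library is the rightmost point for 40 genes, and for 40 genes both red points lie to the right of both blue points.

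The one test this design allows is a limma fit to the 4 libraries together, with additive terms for subset and spleen. It tests the mean DNAM-1+ minus DNAM-1- difference in log2(FPKM + 1) over both spleens, with 1 residual degree of freedom and a spread borrowed across genes. A call therefore leaves unsaid whether the difference was the same in each spleen. Its p-values rest on how far subset differences changed between the spleens, pooled across genes, and not on replicate libraries. Among the 9074 genes that reached 5 FPKM in any library, 7.35% rose in DNAM-1+ cells and 8.38% fell at an adjusted p below 0.05. Of the 41 members, 32 rose, 0 fell, 3 were tested and not called (Aurka, Ccnb1 and Hmmr), and 6 were under 5 FPKM in every library and not tested (Pbk, Bub1, Ttk, Cenpf, Ect2 and Anln). At an unadjusted p below 0.05, 35 of the 35 tested members were higher, beside 29.6% of all genes in either direction. A member that reached 5 FPKM only through its high DNAM-1+ library could hardly have come out level, so the count stands beside all 41.

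**Figure D2:**
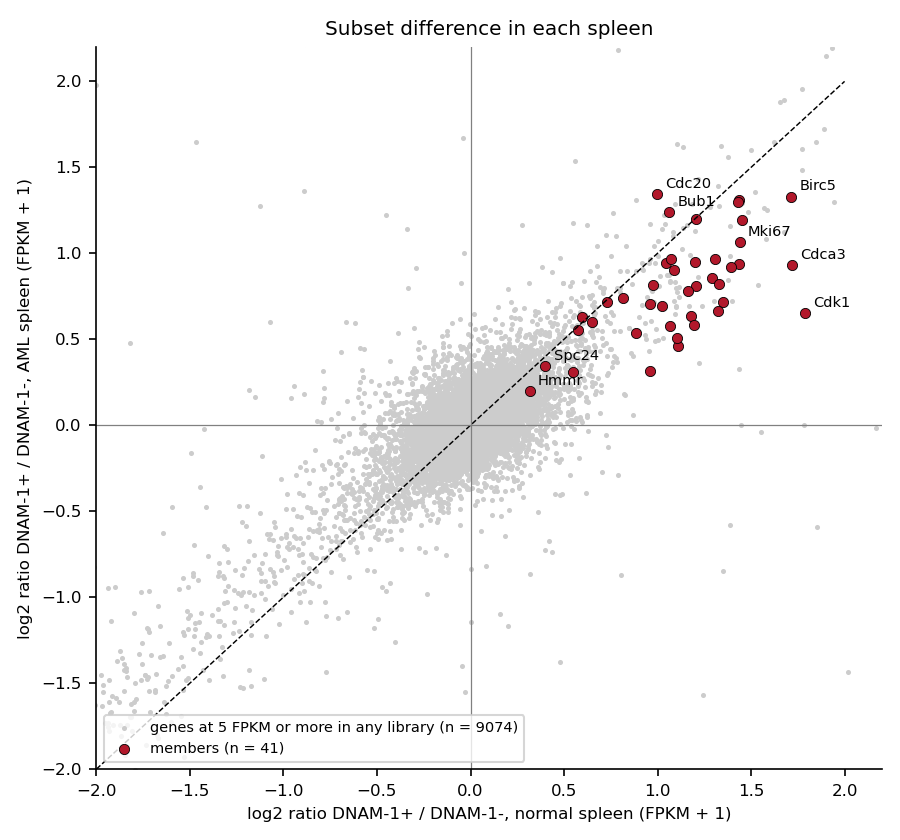
Log2 ratio of DNAM-1+ to DNAM-1- cells (FPKM + 1) in normal spleen (x axis) and in AML spleen (y axis), with the 41 members in red over the 9074 genes at 5 FPKM or more in grey, the dashed line marking equal ratios and genes beyond the axis limits not drawn. All 41 members lie above 0 on both axes, and 38 lie below the dashed line.

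Promoters of 6 members are shown so that the elements named above can be seen in genes that were all higher in DNAM-1+ cells. Capitals mark 2 elements, searched on both strands. The core of the cell cycle homology region was taken as TTTGAA, which on the opposite strand appears as TTCAAA, and a further accepted form of it, TTTAAA, is its own reverse complement. The CCAAT box appears on the opposite strand as ATTGG. The sequences are from RefSeq, build GRCm38.p6, and run 5′ to 3′ in the direction of transcription. They cover at most 200 bases before the annotated start of the 6 genes of highest mean level among the 14 members with both elements there. For Mki67 and Prc1 the start used lies inside the annotated gene span. Their stretches stop short of that start, and their last 30 bases are within the gene span.
Mki67: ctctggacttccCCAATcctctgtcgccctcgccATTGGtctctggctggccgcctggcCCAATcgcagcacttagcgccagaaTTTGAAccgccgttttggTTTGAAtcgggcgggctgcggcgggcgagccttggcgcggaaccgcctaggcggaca
Top2a: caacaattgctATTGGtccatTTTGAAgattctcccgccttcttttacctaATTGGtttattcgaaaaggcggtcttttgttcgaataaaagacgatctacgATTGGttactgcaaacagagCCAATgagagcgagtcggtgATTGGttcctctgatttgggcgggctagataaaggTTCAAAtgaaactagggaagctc
Ube2c: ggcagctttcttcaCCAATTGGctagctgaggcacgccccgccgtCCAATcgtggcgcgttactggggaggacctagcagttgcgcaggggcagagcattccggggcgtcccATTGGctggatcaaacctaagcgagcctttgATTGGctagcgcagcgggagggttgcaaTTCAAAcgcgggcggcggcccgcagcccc
Cenpa: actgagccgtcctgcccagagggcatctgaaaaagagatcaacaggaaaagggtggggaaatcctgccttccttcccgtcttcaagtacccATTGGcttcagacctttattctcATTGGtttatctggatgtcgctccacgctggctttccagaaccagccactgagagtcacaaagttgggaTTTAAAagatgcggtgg
Prc1: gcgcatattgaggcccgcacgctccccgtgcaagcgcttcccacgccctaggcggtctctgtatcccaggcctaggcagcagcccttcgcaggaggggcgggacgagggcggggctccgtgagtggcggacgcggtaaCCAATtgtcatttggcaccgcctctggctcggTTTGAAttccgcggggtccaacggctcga
Kif11: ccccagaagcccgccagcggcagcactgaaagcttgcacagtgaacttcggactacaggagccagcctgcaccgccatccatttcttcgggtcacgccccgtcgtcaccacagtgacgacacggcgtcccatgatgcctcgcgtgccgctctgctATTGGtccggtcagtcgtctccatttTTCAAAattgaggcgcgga
The Mki67 stretch is chr7:135716421-135716579 on the minus strand, with 3 CCAAT boxes followed by 2 homology region cores. The Top2a stretch is chr11:99024190-99024389 on the minus strand and holds 2 cores and 5 of the 6 CCAAT boxes of its full window. Ube2c (chr2:164769729-164769928, plus strand) has 1 core, and a pair of its CCAAT boxes overlap on opposite strands in the run CCAATTGG. Cenpa (chr5:30666686-30666885), Prc1 (chr7:80294276-80294474) and Kif11 (chr19:37376182-37376381), all on the plus strand, have 1 core each, downstream of their CCAAT boxes. Prc1 has 2 annotated starts, and the stretch shown lies before the downstream one.

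The promoter table, with 250 bases before and 50 after each start, held 33 of the 41 members. It held no entry for Ccna2, Foxm1, Pbk, Aurkb, Incenp, Spc24, Tpx2 and Kif20a. A homology region core on either strand was in the windows of 29 of 33 members (87.9%), against 30.6% of the 27025 genes in the table and 23.1% of the 9425 of them at 1 FPKM or more in these cells. CCAAT was in 26 of 33 (78.8%), against 41.1% and 43.4%, and both elements together in 25 of 33 (75.8%), against 12.2% of the table. Bub1, Mad2l1, Nuf2 and Nusap1 had no core, and Anln, Birc5, Kif2c, Mad2l1, Ndc80, Nuf2 and Nusap1 had no CCAAT. With only the 250 bases before the start, the share with a core was 48.5%, against 28.1% of the table. Windows of 34 genes of DNA replication and S phase held a core in 8 (23.5%) and CCAAT in 21 (61.8%). Those of 32 further mitotic genes outside the 41, a list described with the other pathways, held a core in 19 (59.4%) and CCAAT in 17 (53.1%). These matches describe letters in a window and are neither shown binding sites nor a cause.

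Counted after the positions had been seen, 26 of the 33 genes (78.8%) held a core within 50 bases of a start, against 9.54% of the table and 17 of 32 (53.1%) of the other mitotic genes. A pair of CCAAT boxes on 1 strand with first bases 31 to 34 apart was in 8 genes (Aurka, Ccnb1, Ccnb2, Cdca8, Cdk1, Hmmr, Spc25 and Ube2c), or 24.2% against 1.04%. The median GC content of the members' windows was 58.7%, beside 60.3% for genes at 1 FPKM or more and 52.7% for the table.

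**Figure D3:**
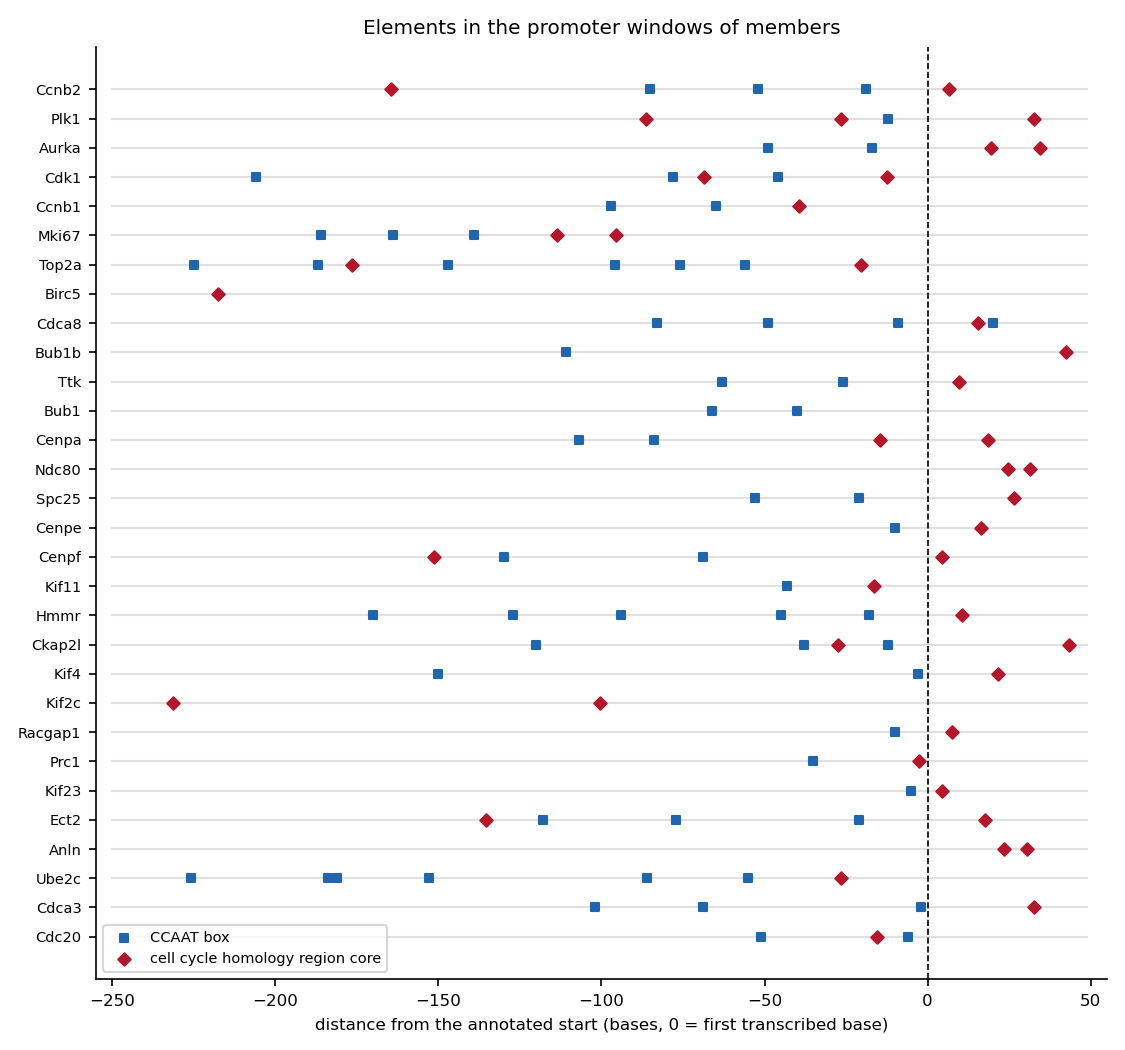
Position of each CCAAT box (blue squares) and homology region core (red diamonds) along the promoter windows (1 per gene) of the 30 members that hold at least 1 of them, in bases from the annotated start, where 0 is the first transcribed base. The red diamonds gather around the start, with 26 members holding a core within 50 bases of it, and the blue squares lie mostly upstream.

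Of the proteins that start mitosis, Cdk1 is the kinase, Ccnb1 and Ccnb2 are its mitotic cyclins, and Ccna2 is the cyclin of late S phase and G2. In this group of 8 the subset ratio had a median log2 of 1.27 in normal spleen and 0.73 in AML spleen, and 5 of the 7 tested members rose. Ccna2 (NCBI Gene 12428) was at 20.02, 6.78, 14.3 and 5.18 FPKM in the normal spleen libraries of DNAM-1+ and DNAM-1- cells and then in the corresponding pair of AML spleen, the order used for all levels that follow. Ccnb2 (12442) was at 17.6, 5.88, 12.2 and 4.37 FPKM. Both DNAM-1+ libraries were well above both DNAM-1- libraries, and for these cyclins the subset ratio was nearly as large in AML as in normal spleen (log2 1.43 and 1.31 for Ccna2, 1.43 and 1.30 for Ccnb2). The limma difference was 1.37 for Ccna2 (SE 0.09, adjusted p = 0.000195) and 1.37 for Ccnb2 (SE 0.09, adjusted p = 0.000287).

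Cdk1 (12534) had the highest subset ratio of all members in normal spleen, at 8.01, 1.61, 4.4 and 2.44 FPKM. The 2 DNAM-1+ libraries were the highest, but the DNAM-1- level was higher in AML than in normal spleen, so the log2 ratio was 1.79 for normal and 0.65 for AML spleen. On the FPKM scale the ratio was 4.98 (3.78 to 6.61) in normal and 1.8 (1.41 to 2.35) in AML spleen, with intervals that rest on a transcript of 4375 bases. With the shorter annotated transcript of 1253 bases the intervals were 2.93 to 8.62 and 1.13 to 3.04. The limma difference of 1.22 (SE 0.30, adjusted p = 0.0429) was the one nearest to the threshold among the 32 called. It was not called when genes down to 1 FPKM were tested (limma adjusted p = 0.0675) or without the mean-variance trend (limma adjusted p = 0.0925). Ccnb1 (268697) was at 5.57, 2.04, 3.08 and 1.97 FPKM, also lower in the DNAM-1- libraries, with log2 ratios of 1.11 and 0.46. Its limma difference of 0.78 (SE 0.28, adjusted p = 0.116) did not pass, though it did with protein-coding genes alone (limma adjusted p = 0.0272).

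Plk1, the Polo-like kinase of mitotic entry and centrosome maturation, was at 12.4, 5.39, 8.53 and 5.38 FPKM. Its 2 DNAM-1- libraries were level, and it rose in limma (0.82, SE 0.14, adjusted p = 0.0121). Aurka, the Aurora A kinase of the spindle poles, was at 7.53, 3.39, 4.35 and 3.3 FPKM. It had one of the smallest ratios in AML spleen (log2 0.32), where its counting interval of 1.32 (0.92 to 1.91) spanned 1, and it did not pass limma (0.64, SE 0.21, adjusted p = 0.0942; 0.0315 with protein-coding genes alone). Foxm1, the transcription factor that drives G2/M genes, was at 10.7, 4.93, 7.41 and 3.77 FPKM and rose by 0.90 (limma, SE 0.12, adjusted p = 0.00493). Pbk, a mitotic kinase, was too low to be tested, at 3.93, 0.82, 2.85 and 1.01 FPKM.

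Mki67, which encodes the Ki-67 protein that coats mitotic chromosomes, and Top2a, the topoisomerase that untangles sister DNA, were among the 3 members with the highest levels in DNAM-1+ cells, together with Racgap1. Mki67 (17345) was at 63.2, 22.7, 36.3 and 16.8 FPKM and Top2a (21973) at 52.6, 18.6, 34.5 and 14.5 FPKM. Each library had its own level for both genes, in the common order and with no overlap between subsets. The ratio of DNAM-1+ to DNAM-1- cells was 2.79 (2.65 to 2.93) in normal and 2.16 (2.03 to 2.29) in AML spleen for Mki67, and 2.83 (2.61 to 3.05) and 2.37 (2.17 to 2.6) for Top2a. In limma, Top2a had the lowest adjusted p of all members (1.32, SE 0.08, adjusted p = 0.000193), and Mki67 rose by 1.25 (SE 0.10, adjusted p = 0.000466).

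The chromosomal passenger complex, which corrects faulty spindle attachments, is made of the kinase Aurora B (Aurkb), its scaffold Incenp, survivin (Birc5) and borealin (Cdca8). All 4 rose, with group medians of 1.00 and 0.83 in the 2 spleens. Birc5 (11799) was at 25.02, 6.93, 14.8 and 5.28 FPKM, Aurkb (20877) at 12.1, 5.35, 9.49 and 4.45 and Cdca8 at 9.88, 4.59, 6.59 and 3.65. Incenp (16319) was at 35.1, 23.2, 28.8 and 19.2 FPKM, so its DNAM-1- libraries kept a higher share of the DNAM-1+ level than those of its partners. The limma difference was 1.52 for Birc5 (SE 0.11, adjusted p = 0.000345), the largest of any member, and 0.57 for Incenp (SE 0.06, adjusted p = 0.00242).

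The spindle checkpoint delays anaphase until all kinetochores are attached, through the kinases Bub1 and Ttk and the inhibitors Bub1b (BubR1) and Mad2l1 (Mad2). Its group medians were 0.94 and 0.82. Mad2l1 (56150) was at 15.2, 9.7, 13.2 and 8.17 FPKM and Bub1b (12236) at 12.4, 5.3, 8.26 and 3.95 FPKM, in the common order. Both rose in limma, Mad2l1 by 0.61 (SE 0.08, adjusted p = 0.004) and Bub1b by 1.00 (SE 0.11, adjusted p = 0.00249). The other two were untested, with Ttk at 3.47, 1.54, 2.22 and 0.93 and Bub1 at 3.18, 1.0, 3.11 and 0.74 FPKM. Bub1 was level between the 2 DNAM-1+ libraries and had a larger ratio in AML (log2 1.24) than in normal spleen (log2 1.06).

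Kinetochore genes had medians of 1.18 and 0.72, and all 6 tested members of 7 rose. Ndc80, Nuf2, Spc24 and Spc25 form the NDC80 complex that grips microtubules, and its subunits differed in level. Spc24 (67629) was at 37.8, 28.4, 27.7 and 21.6 FPKM, Ndc80 (67052) at 10.3, 5.78, 6.93 and 3.83, Nuf2 at 7.06, 2.5, 4.74 and 1.5 and Spc25 at 8.84, 2.86, 5.71 and 3.08. The subset difference was smallest in Spc24, the most abundant subunit (log2 0.40 and 0.34), and larger in Nuf2 (1.20 in both spleens) and Spc25 (1.35 and 0.72). In limma Spc24 rose by 0.37 (SE 0.07, adjusted p = 0.0134) and Nuf2 by 1.20 (SE 0.21, adjusted p = 0.0122). Spc24 was not called after each library was divided by its NK marker genes (limma adjusted p = 0.0532) or without the trend (limma adjusted p = 0.0564).

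Cenpa (12615), the histone variant that marks centromeres, was at 17.9, 11.1, 19.03 and 12.2 FPKM and was the only member with its highest level in the DNAM-1+ AML library. The subset difference was still present in both spleens (log2 0.65 and 0.60; limma 0.63, SE 0.07, adjusted p = 0.00242). Cenpe, a kinetochore motor, was at 7.71, 2.56, 4.23 and 1.89 FPKM and rose by 1.07 (limma, SE 0.21, adjusted p = 0.0211). Cenpf, a large kinetochore protein, was at 4.78, 1.55, 2.65 and 1.35 FPKM and was not tested.

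The spindle group had medians of 1.31 and 0.82, with 6 of 7 members called. Kif11 (16551), the motor that pushes spindle poles apart, was at 17.4, 6.03, 11.6 and 5.68 FPKM, and Nusap1 (108907), which bundles spindle microtubules, at 15.2, 5.56, 9.75 and 4.5 FPKM. Both rose in limma, Kif11 by 1.16 (SE 0.13, adjusted p = 0.00216) and Nusap1 by 1.14 (SE 0.12, adjusted p = 0.00167). Hmmr (15366), a spindle protein that also serves as a hyaluronan receptor, was at 9.46, 7.4, 8.47 and 7.26 FPKM. Its 4 libraries lay close together, it had the smallest log2 ratio of all members in each spleen (0.32 and 0.20), and it did not pass (limma 0.26, SE 0.10, adjusted p = 0.142). Tpx2, the activator of Aurora A on the spindle, was at 13.2, 5.17, 8.45 and 3.9 FPKM, and Ckap2l, a spindle protein, at 9.23, 3.09, 4.99 and 2.78 FPKM. The kinesins Kif2c, which takes microtubules apart, and Kif4, which shapes chromosomes and the central spindle, were lower, at 5.89, 1.74, 3.81 and 1.72 and 6.34, 2.18, 3.76 and 1.71 FPKM. These 4 rose by between 0.99 and 1.08 in limma, with adjusted p from 0.00211 (Tpx2) to 0.0408 (Kif2c).

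Genes of the central spindle and of cytokinesis had medians of 1.09 and 0.64, and all 4 tested members rose. Racgap1 (26934) and Kif23 (71819), which together form centralspindlin, were at 53.4, 36.2, 42.7 and 34.4 FPKM and at 13.4, 5.43, 9.36 and 5.02 FPKM. Prc1 (233406), which bundles the microtubules between the separating chromosomes, was at 16.8, 7.75, 12.8 and 7.5 FPKM. Racgap1 kept a high level in DNAM-1- cells and had the second smallest ratio in AML spleen (log2 0.31), while Kif23 had ratios of 1.16 and 0.78 although both proteins act in 1 complex. The limma difference was 0.43 for Racgap1 (SE 0.08, adjusted p = 0.0157; 0.072 without the trend), 0.97 for Kif23 (SE 0.12, adjusted p = 0.00392) and 0.86 for Prc1 (SE 0.10, adjusted p = 0.00307). Kif20a, a motor of the midzone, was at 12.2, 5.12, 8.52 and 5.7 FPKM and rose by 0.81 (limma, SE 0.16, adjusted p = 0.0194; 0.0658 without the trend). Ect2, the exchange factor that starts furrowing, and Anln, the anillin scaffold of the furrow, were untested, at 4.17, 1.46, 3.44 and 1.27 and 3.88, 1.13, 2.0 and 1.0 FPKM.

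Of the genes for mitotic exit, Cdc20 encodes the activator of the anaphase-promoting complex, Ube2c its ubiquitin-conjugating enzyme and Cdca3 a ubiquitin ligase adaptor of mitotic entry. All 3 rose. Ube2c (68612) was at 33.3, 17.6, 24.6 and 16.6 FPKM, Cdca3 (14793) at 22.8, 6.25, 12.1 and 5.89 and Cdc20 (107995) at 12.3, 5.67, 10.3 and 3.43. Cdc20 was lowest in DNAM-1- cells of AML spleen, clearly under their normal level, and had the highest ratio of all members in AML spleen on the log2(FPKM + 1) scale (1.35, against 1.00 in normal), whereas Cdca3 went from 1.72 in normal to 0.93 in AML spleen. Without the added FPKM its AML ratio was 2.99, below those of Bub1 at 4.2 (2.66 to 6.96) and Nuf2 at 3.16. The limma difference was 1.17 for Cdc20 (SE 0.13, adjusted p = 0.00188), 1.32 for Cdca3 (SE 0.18, adjusted p = 0.00471) and 0.71 for Ube2c (SE 0.10, adjusted p = 0.00483).

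Most mitotic genes had lower levels in the AML than in the normal spleen library of the same subset, but none passed the limma test for AML. In DNAM-1+ cells 40 of 41 members were lower in AML (46.9% of all genes were), with a median log2 ratio of -0.49 (-0.86 to 0.08) beside 0.01 for all genes. In DNAM-1- cells 36 of 41 were lower (51.7% of all genes), with a median of -0.20 (-0.59 to 0.40) beside -0.01. These 2 comparisons share no library, but both libraries of each were also used in the subset comparisons above. No member was 2-fold lower or higher in either subset, where 0.346% and 0.397% of genes were 2-fold lower and 0.311% and 0.193% 2-fold higher. The counting interval of the ratio lay below 1 for 34 members in DNAM-1+ cells and for 13 in DNAM-1- cells, again without a share of all genes. Lower in both subsets were 36 members, against 28.4% of all genes.

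No member passed the limma test for AML, in which 0.0661% of the 9074 genes rose and 0.287% fell. At an unadjusted p below 0.05, 19 of the 35 tested members were lower and 0 higher, beside 12.5% of all genes in either direction, and the lowest adjusted p of a member in limma was 0.087 (Spc24; Mki67 had 0.0899). Mki67, Top2a and Spc24 passed in 4 of the alternatives, among them the one with protein-coding genes alone (limma adjusted p = 0.0181, 0.0308 and 0.0269). On the log2(FPKM + 1) scale, Cdca3 (log2 -0.86), Mki67 (-0.78) and Ckap2l (-0.77) had the lowest AML ratios in DNAM-1+ cells, and Cdc20 (-0.59), Ndc80 (-0.49) and Nuf2 (-0.49) in DNAM-1- cells. Ratios in DNAM-1+ cells were 0.53 (0.45 to 0.63) for Cdca3 and 0.57 (0.55 to 0.60) for Mki67, and the ratio for Cdc20 in DNAM-1- cells was 0.60 (0.42 to 0.85). At the other end, Cenpa was above normal in both subsets (log2 0.08 and 0.13), with counting intervals that spanned 1.

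Cdk1, Pbk, Spc25 and Kif20a were lower in AML in DNAM-1+ cells and higher in DNAM-1- cells. Of these only Cdk1 had a counting interval above 1 in DNAM-1- cells, at 1.52 (1.09 to 2.1). That interval rests on a transcript of 4375 bases, and with the shorter annotated transcript of 1253 bases it was 0.779 to 2.83. On the log2(FPKM + 1) scale the subset ratio was smaller in AML than in normal spleen for 38 of 41 members (46.7% of all genes). The median change was -0.33, and the ratio was larger in AML for Bub1, Mad2l1 and Cdc20. Without the added FPKM it was also larger in AML for Nuf2 (2.82 in normal and 3.16 in AML spleen), Ttk (2.25 and 2.39) and Ndc80 (1.78 and 1.81). The change in subset ratio between spleens has no residual degrees of freedom in the design and was not tested.

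The mitotic genes were followed beside 8 lists of other cell cycle genes. DNA replication and S phase genes moved the same way with smaller ratios, with medians of 0.56 (normal spleen) and 0.42 (AML spleen), 38 of 41 higher in DNAM-1+ cells in each, and in limma 24 of 35 tested rose and 0 fell. The replication clamp Pcna was at 151, 107, 126 and 95.95 FPKM, the helicase subunit Mcm6 at 61.9, 41.9, 51.9 and 38.9 and the histone mRNA binding protein Slbp at 63.8, 48.4, 54.2 and 43.7, and all 3 rose. Their summed level was 914, 624, 725 and 550 FPKM, so that the mitotic sum per unit of S phase sum was 0.723, 0.484, 0.638 and 0.471. By that ratio both DNAM-1+ libraries were above both DNAM-1- libraries.

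Another 40 mitotic genes outside the 41 had medians of 0.89 and 0.58, and 16 of 25 tested rose. Among the 3 most abundant of these, Cdc25b, a phosphatase that activates Cdk1, was at 30.3, 20.7, 29.1 and 24.6 FPKM and rose by 0.38 (limma, SE 0.09, adjusted p = 0.0334), and Cks2, a Cdk1 subunit, was at 25.5, 18.9, 18.4 and 16.8 and was not called. Pttg1, the securin that holds back sister separation, was at 31.6, 36.9, 28.8 and 36.03 FPKM and was the only one that fell in DNAM-1+ cells (-0.26, SE 0.07, limma adjusted p = 0.044). Of the 8 condensin genes, which compact mitotic chromosomes, 6 rose (medians 0.95 and 0.54), among them Ncapd2 at 24.9, 12.5, 18.1 and 10.4 and Smc4 at 60.1, 41.8, 51.4 and 41.2 FPKM. Ncaph2, at 35.8, 33.1, 34.4 and 31.4 FPKM, was not called.

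Lists of machinery that cells also use outside mitosis had lower medians. Of 9 cohesin genes, which hold sister DNA together and shape interphase chromosomes, 0 were called by limma (medians 0.19 and 0.05; 2 had an unadjusted p below 0.05), and Rad21 was at 103, 79.3, 92.9 and 85.6 FPKM. Of 14 tested subunits of the anaphase-promoting complex itself, 0 were called by limma (medians 0.05 and 0.10; 1 had an unadjusted p below 0.05), with Anapc5 at 62.9, 58.9, 61.8 and 57.5 FPKM, in contrast to its activator Cdc20 and its enzyme Ube2c. Among G1 cyclins, kinases and E2F factors 4 of 13 tested rose (medians 0.21 and 0.33): Ccne1, Cdk4, E2f8 and Tfdp1. The abundant D cyclin Ccnd3 was at 186, 171, 190 and 181 FPKM and Cdk4 at 82.98, 61.5, 83.3 and 63.6 FPKM. The pocket protein and MuvB list, which holds the components of DREAM, had medians of 0.00 and 0.13, with Rbl2 and Rbbp4 called higher and Rb1 lower among 9 tested. E2f4 was at 65.02, 71.3, 67.6 and 66.5 and Rbl2 at 83.7, 64.5, 85.3 and 72.8 FPKM. Among CDK inhibitors, Cdkn2c rose (limma 0.66, SE 0.08, adjusted p = 0.00371) and Cdkn1a, which encodes p21, fell (at 3.47, 10.02, 4.03 and 7.3 FPKM; limma -1.01, SE 0.17, adjusted p = 0.0119). The abundant Cdkn1b, which encodes p27, was at 76.7, 71.5, 76.1 and 81.4 FPKM and was not called.

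**Figure D4:**
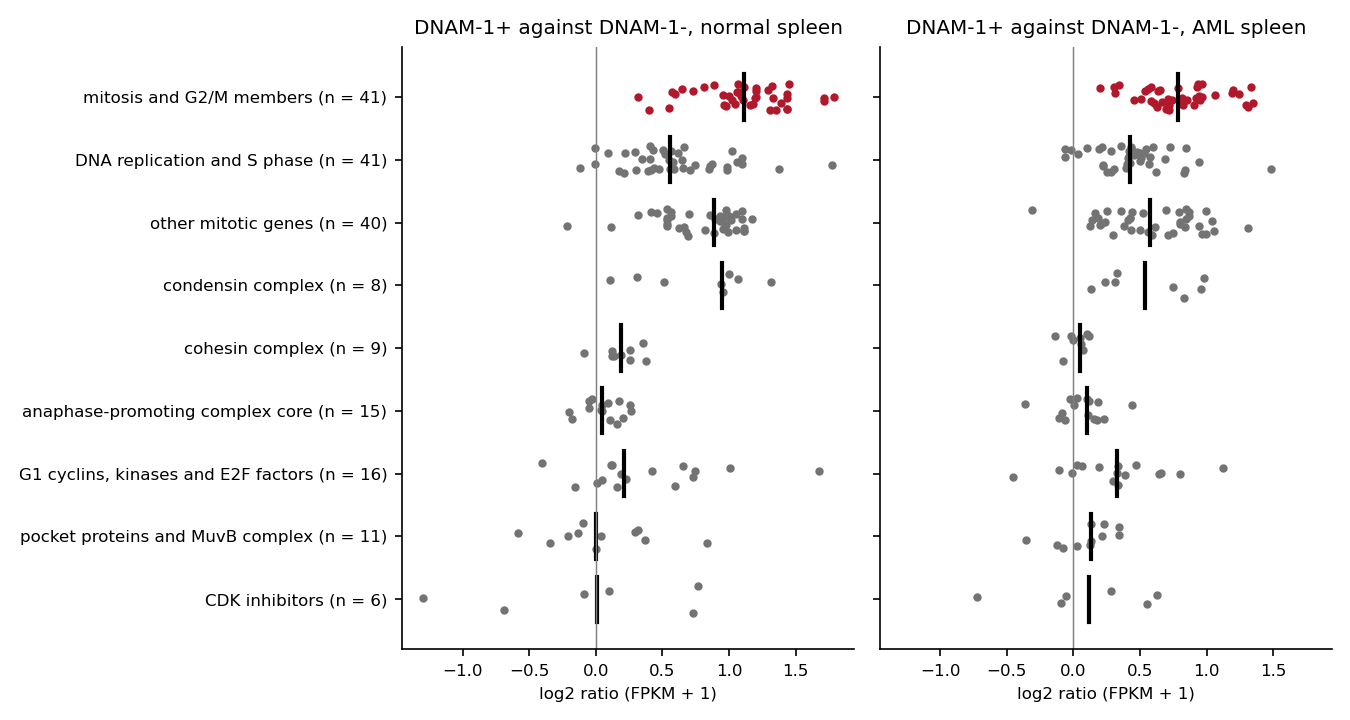
Log2 ratio of DNAM-1+ to DNAM-1- cells (FPKM + 1) for the genes of each cell cycle list at 1 FPKM or more in any library, in normal spleen (left) and AML spleen (right), 1 point per gene with a black bar at the list median. The bar of the mitosis and G2/M members is the furthest right in both panels, at 1.11 and 0.78, and the bars of the cohesin, anaphase-promoting complex and MuvB lists lie between 0.00 and 0.19.

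Markers of other spleen cells differed between the libraries along with these genes. The summed level of 10 B cell genes was 224, 1081, 248 and 1041 FPKM and all 10 fell in DNAM-1+ cells, monocyte genes summed to 540, 1089, 627 and 1092, and macrophage genes to 41.3, 135, 43.6 and 117. The monocyte sum was mostly Itgam (162, 186, 184 and 215 FPKM), Ly6c2, Ccr2 and Nr4a1. The 11 monocyte genes had a median log2 subset ratio of -2.84 in normal and -2.43 in AML spleen, with 10 lower and 1 higher in DNAM-1+ cells of each. The 12 NK cell genes summed to 8825, 7804, 9387 and 8981 FPKM. Dividing each library by its NK marker genes left all 41 members higher in DNAM-1+ cells in both spleens, with medians of 1.00 and 0.65 and 31 of 35 tested members rising in limma. Of the T cell genes 5 of 6 tested rose, and Cd3e was at 9.22, 1.74, 8.95 and 1.25 FPKM. The sixth, Cd8b1, was lower in DNAM-1+ cells, at 2.28, 5.32, 0.67 and 2.11 FPKM, and was not called (limma adjusted p = 0.117), and Cd4 was at 1.29, 1.3, 1.38 and 0.75 FPKM. The T cell sum of 413, 268, 408 and 275 FPKM was mostly Lck, at 336, 234, 336 and 245 FPKM. The receptor constant genes Trac, Trbc1 and Trbc2 were at 0 FPKM in every library, with genes not listed taken as 0. Whether the annotation held them is not known. In the list of leukaemia and myeloid progenitor genes the sum was 36.3, 26.1, 43.5 and 27.5 FPKM, Kit was at 17.9, 7.86, 25.3 and 9.78 and Hoxa9, a gene that MLL-AF9 switches on, at 0.04, 0.04, 0.32 and 0.18 FPKM. Erythroid precursor genes, of another dividing cell of the spleen, summed to 15.5, 25.2, 21.7 and 23.2 FPKM. Of these 10 genes only 5 reached 1 FPKM in any library, and they went both ways. Between the subsets, 2 were higher and 7 lower on the DNAM-1+ side in normal spleen, and 4 higher and 5 lower in AML spleen. Dividing by NK marker genes changes all genes of a library by the same factor and cannot separate RNA of other cells. The part of these other cells in the mitotic difference was not tested.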

How the data were processed

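The deposited values are FPKM per gene, per the file headers, under NCBI Gene numbers, 1 file per library, and genes not listed were taken as 0. Bowtie2 2.2.5 and RSEM are named, with no stated role, per the submitters' processing notes. The genome build and annotation are not given in the sources used here. RNA was extracted from sorted cells and sequenced on the BGISEQ-500 platform, per the labels' protocols. Of 17723 gene numbers, 17668 matched a symbol in the RefSeq table of GRCm38.p6, which also gave the promoter sequences.

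Each ratio is log2 after adding 1 FPKM, which understates differences of low genes. Folds were counted at 2-fold with 5 FPKM or more in the higher library. For the test, log2(FPKM + 1) of the 9074 genes that reached 5 FPKM in any library was fitted in R 4.3.3 by limma 3.58.1, with a trended prior variance, additive in subset and spleen, two-sided, Benjamini-Hochberg adjusted over all of them, called below 0.05, and checked on simulated data.

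Depth was estimated from small RNA genes of 55 to 350 nt, of whose values 87.0% to 93.0% lay within 0.1 read of whole numbers up to 6 reads when 37 nt were taken off each length. Estimated fragments used lengths of GENCODE transcripts linked to RefSeq.

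Members given in every library are the 3 of highest mean FPKM in each role and the 3 highest and 3 lowest ratios of each contrast, and from each other list the 3 of highest mean. Further members, and Cdkn1a, Ccne1, E2f8, Tfdp1, Rb1, Mybl2, Myb, Itgam, Ly6c2, Ccr2, Nr4a1, Cd8b1 and Cd4, were named after their values were seen. The rule of highest means did not cover the cell type marker lists. Members and lists were chosen with earlier results of these data known. Alternatives covered the pseudocount, scaling, expression floor, fold, limma prior, gene set and promoter window.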

Additional observations from a re-analysis of the deposited data

Results flagged for a closer look

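For 4 members the AML minus normal difference went opposite ways in the 2 subsets, each subset having 1 library per spleen, and the difference between subsets was not tested. The log2 ratio was -0.74 (DNAM-1+) and 0.40 (DNAM-1- cells) for Cdk1, -0.36 and 0.14 for Pbk, -0.55 and 0.080 for Spc25, and -0.47 and 0.13 for Kif20a. The median of 2 lists also changed sign between subsets, again untested: -0.13 (DNAM-1+) and 0.029 (DNAM-1- cells) for cohesin, and 0.027 and -0.026 for pocket proteins and MuvB.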

How the results depend on the processing

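All 41 members stayed higher in DNAM-1+ cells in both spleens, a count added after the data had been seen, with 0.1 or 5 FPKM added in place of 1, with libraries rescaled to TPM, centred on the median gene (a shift of at most 0.02) or divided by NK marker genes. Lower in AML were 40 or 41 (DNAM-1+ cells) and 34 to 37 (DNAM-1- cells). With 5 FPKM added the median in normal spleen was 0.70, and 7 members in normal and 1 in AML spleen were 2-fold higher. With 0.1 FPKM added, 12 were in AML spleen. With a floor of 20 FPKM, 5 and 2 were, and limma called 9 of the 9 members tested, fewer members being testable. At 1.5-fold, 20 members were higher in AML spleen, while 12 (DNAM-1+ cells) and 1 (DNAM-1- cells) were lower in AML than in normal spleen. The share of all genes was not computed for these changed fold counts. For AML, limma called 3 members lower (Mki67, Top2a and Spc24) when centred, when divided by NK marker genes, at the floor of 20 FPKM and with protein-coding genes alone. The cause was not tested. The homology region share was 48.5% without the 50 bases after the start. Over all genes, 667 rose and 760 fell for the subset, 327 and 1842 after division by NK marker genes, 321 and 561 without the trend, 523 and 434 at the floor of 20 FPKM, and for AML 6 and 26, 18 and 72 when centred, 7 and 94 after division, 18 and 51 at that floor, 26 and 81 with protein-coding genes alone, 4 and 5 at a floor of 1 FPKM, and 1 and 4 without the trend. The member counts for the subset were 31 of 35 after division, 28 of 35 without the trend, 36 of 41 at the floor of 1 FPKM and 34 of 35 with protein-coding genes alone. Over all genes, 534 rose and 775 fell of 12054 at the floor of 1 FPKM. With protein-coding genes alone 864 rose and 864 fell of 8658, so more genes were called there in both directions than in the main fit. The limma fit already compares the subsets within each spleen, and no paired analysis by replicate number or mouse was possible because the labels give neither. No library could be left out, since each group has 1. With the estimated fragments, the counting interval of a member's log2 ratio had a median half-width of 0.27 to 0.40, narrower for genes with more fragments, and a difference within a gene's own interval was not detectable.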
